A study of Homo sapiens with 4 samples.

Results

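The G1 cyclins, their kinases, 2 CDK inhibitors and the retinoblastoma gene form a set of 10 genes, namely CCND1, CCND2, CCND3, CCNE1, CCNE2, CDK4, CDK6, CDKN1A, CDKN1B and RB1, chosen by name from the 64486 genes of the annotation, of which 20176 are protein-coding. H3K4me3, a histone mark concentrated at the start sites of transcribed genes, was mapped by native ChIP-Seq after micrococcal nuclease digestion in MDA-MB-231, a human cell line established from triple negative breast cancer. The groups were untreated cells, cells given 1 μM Tat-SID, cells given 2.5 μM Tat-SID, and input DNA without an antibody. The peptide was given for 3 days. Tat-SID is a decoy peptide that carries the SIN3 interaction domain of MAD behind a nuclear import sequence from the viral Tat protein, and it competes for the PAH2 domain of the SIN3 scaffold. Each condition was 1 library of 1 cell line, so replicate error is not known and treated and untreated cells were not compared by a test. No library came from cells given a scrambled peptide, so an effect particular to the SIN3 interaction domain was not tested. The files used here hold 141 regions whose H3K4me3 was lower at 1 μM than in untreated cells, 2063 that were lower at 2.5 μM and 3 that were higher at 2.5 μM. These lists give only the position of each region, with no read number, fold change or FDR, so that the size of a reduction and the depth of the libraries are unknown here. Whether the cells express markers of their type could not be checked from positions. Genes were counted if any part of a region was within 3 kb of the gene start or of the transcription start site (TSS) of any annotated transcript, with GENCODE on GRCh37, the build of the regions. The canonical transcript is the one that GENCODE marks as representative of the gene.

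In G1, mitogens raise the D-type cyclins, which activate CDK4 and CDK6, and these kinases begin to phosphorylate the retinoblastoma protein and free the E2F factors it holds. E2F activity raises the E-type cyclins, whose partner CDK2 completes the phosphorylation, and the cell enters S phase. The inhibitors p21 and p27 bind cyclin-CDK complexes and restrain CDK2, while INK4 proteins block CDK4 and CDK6 directly. MAD, from which the decoy peptide was taken, partners MAX at the E-box CACGTG and recruits SIN3 to repress genes, among them genes that MYC activates.

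At 2.5 μM Tat-SID, H3K4me3 was reduced within 3 kb of a start site at 3 of the 10 genes: the D-type cyclin gene CCND3, the kinase gene CDK6 and the inhibitor gene CDKN1B, which encodes p27. Over all protein-coding genes the share was 10.8% (exact Clopper-Pearson 95% interval 10.4% to 11.2%, for counting error only), and the share of 30.0% in the 10 genes rests on 3 calls and was not tested against it. The 10 genes were chosen with earlier results of these data known. At 1 μM none of the 10 genes was counted, where 0.674% of protein-coding genes were. Every D-type and E-type cyclin gene other than CCND3 was without a region at either dose, as were CDK4, RB1 and CDKN1A, which encodes p21. The 3 regions where H3K4me3 was increased lay on chromosomes without any of the 10 genes. Each of the 3 reduced regions covered a TSS of its gene, so the call did not rest on the width of the window. Each also held a TSS of another gene, and the CCND3 region held the canonical TSS of TAF8 and not that of CCND3.

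A gene with no H3K4me3 cannot be listed as reduced, and the background of 10.8% includes genes that carry none. Promoters rich in CpG dinucleotides, which most often carry the mark, gave a closer background. Of the 10 genes, 9 had such a promoter, and among the 10197 protein-coding genes with one the share counted was 15.0% at 2.5 μM (14.3% to 15.7%) and 0.941% at 1 μM.

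**Figure D1:**
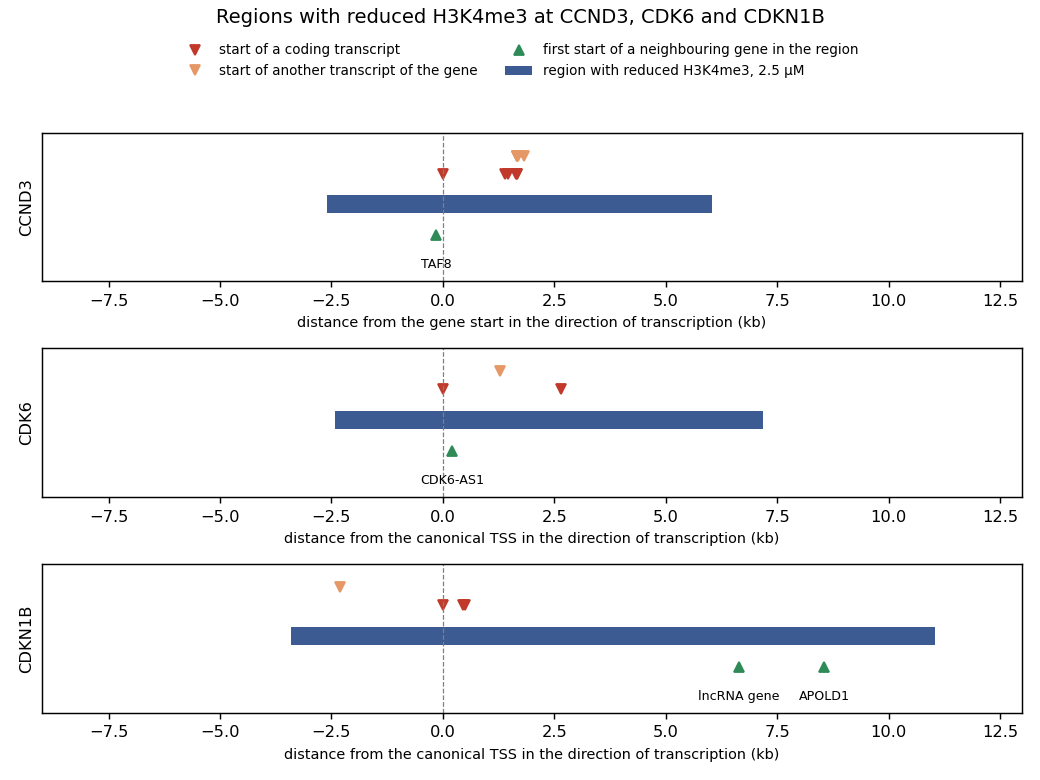
Regions listed as lower in H3K4me3 at 2.5 μM Tat-SID than in untreated cells (blue bars) at CCND3, CDK6 and CDKN1B, against the distance in kb from the gene start (CCND3) or the canonical TSS (CDK6, CDKN1B), in the direction of transcription. Red and orange triangles mark starts of coding and other transcripts of the gene and green triangles the first start of a neighbouring gene inside the region, and transcript starts farther away are not drawn. From these points all 3 regions reach farther downstream than upstream, to 6044, 7186 and 11047 bp, respectively. For CCND3 the point is the outermost of the 11 start sites in the region, which TAF8 shares. Most CCND3 transcripts there begin farther inside the region, so its reach depends on the start chosen.

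CDKN1B (ENSG00000111276.12_10) is on the plus strand of chromosome 12, from 12838432 to 12875303. p27 holds cyclin E-CDK2 inactive and is degraded when cells commit to S phase. The region with reduced H3K4me3 at 2.5 μM ran from 12866901 to 12881349 and was 14449 bp long, the 14th longest of the 2063 regions. It began 3401 bp before the canonical TSS at 12870302, held the whole canonical transcript with exons 1, 2 and 3 and both introns, and went on for 6046 bp past the end of the gene. All 4 coding transcripts of CDKN1B started inside it, including the 594 coding bases of the canonical transcript. The remaining annotated starts are non-coding transcripts, and the earliest of them, which sets the gene start, lay 28.5 kb before the region. The GC content within 1 kb of that distant start was 40.8%, with a ratio of observed to expected CpG of 0.133, against 61.7% and 0.808 around the canonical TSS. The region also held 4 start sites of APOLD1, the first of them 8549 bp downstream of the canonical CDKN1B TSS, and the start of an unnamed long non-coding RNA gene on the opposite strand. The canonical APOLD1 TSS was 57.2 kb outside it. ChIP reads carry no strand and no transcript, so a region with several starts cannot be divided among them. No region reduced at 1 μM was closer to a CDKN1B TSS than 1646 kb.

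CDK6 (ENSG00000105810.10_7) is on the minus strand of chromosome 7, from 92234235 to 92465887, and encodes one of the 2 kinases that the D-type cyclins activate. Its region at 2.5 μM ran from 92458701 to 92468299, over 9599 bp, with 87 longer regions in the list. It reached from 2412 bp upstream of the canonical TSS, which is also the gene start, to 7186 bp downstream, and held exons 1 and 2, intron 1 and some of intron 2 of that transcript. Both coding transcripts of CDK6 started inside it. Of the coding sequence it held 233 bases. The start of the antisense RNA gene CDK6-AS1 lay in the same region, 206 bp inside CDK6. The region made up 3.10% of this long gene, and the other annotated starts, of retained-intron transcripts, were 104 and 211 kb away from it. The nearest region reduced at 1 μM was 8421 kb from a CDK6 TSS.

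CCND3 (ENSG00000112576.13_13) is on the minus strand of chromosome 6, from 41902672 to 42018095, and encodes cyclin D3. Its annotated starts form separate groups, and only the distal group was covered by a region. Its canonical TSS lay at 41909546, and a group of distal starts, from which longer transcripts are made, lay up to 109 kb upstream, ending at the gene start. The region reduced at 2.5 μM covered the distal starts, from 42012051 to 42020699 over 8649 bp, and ended 102505 bp short of the canonical TSS. Of the 23 annotated transcripts 16 began inside it, 8 of them among the 13 coding ones. It held a first exon without coding bases and part of intron 1 of the transcript from the gene start, and none of the 8 coding transcripts had coding sequence in it. TAF8, which encodes a subunit of the general transcription factor TFIID, starts 156 bp away on the opposite strand, and 11 of its start sites, the canonical one included, were in the region. CCND3 likewise had 11 start sites in the region, because some of its 16 transcripts there share a start. Of these 16 transcripts, 1 begins at the gene start beside TAF8 and the other 15 begin from 42016272 to 42016706. The reduction cannot be assigned to TAF8, to the CCND3 start beside it or to the other CCND3 starts. The promoter of the canonical CCND3 transcript was not on either list. Of the 2178 protein-coding genes counted at 2.5 μM, 185 (8.49%) likewise had no region within 3 kb of their canonical TSS, and 261, as CDKN1B, had none within 3 kb of their gene start.

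The sequences just before these start sites are shown because they set the covered promoters beside one that was not covered. They were read from GRCh37 on the strand of the gene, each ending at the base before a TSS. Capitals mark E-boxes (CACGTG) and GC boxes (GGGCGG, the core bound by SP1 and KLF factors) on either strand. The first is CDKN1B, chr12:12870052-12870301, plus strand, inside the region.
CDKN1B: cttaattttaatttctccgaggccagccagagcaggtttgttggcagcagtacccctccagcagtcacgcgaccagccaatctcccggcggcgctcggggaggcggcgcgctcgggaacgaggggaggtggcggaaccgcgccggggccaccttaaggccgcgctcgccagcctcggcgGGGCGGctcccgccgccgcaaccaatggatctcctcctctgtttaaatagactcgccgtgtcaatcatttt
The second is CDK6, chr7:92465888-92466137, minus strand, inside the region.
CDK6: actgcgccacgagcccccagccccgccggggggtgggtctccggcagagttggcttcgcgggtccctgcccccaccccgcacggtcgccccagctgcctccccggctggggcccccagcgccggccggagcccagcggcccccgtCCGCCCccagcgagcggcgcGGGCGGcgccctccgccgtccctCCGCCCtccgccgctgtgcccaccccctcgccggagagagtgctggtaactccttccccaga
The third is the whole interval between the first starts of CCND3 and TAF8, which precedes 1 of the 11 covered CCND3 start sites, chr6:42018096-42018250, read on the minus strand, inside the region.
CCND3-TAF8: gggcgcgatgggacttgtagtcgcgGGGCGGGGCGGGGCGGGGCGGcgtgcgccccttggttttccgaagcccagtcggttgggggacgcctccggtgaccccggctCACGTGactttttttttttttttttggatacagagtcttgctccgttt
The fourth is the stretch before the canonical CCND3 TSS, chr6:41909547-41909796, minus strand, outside any region.
CCND3: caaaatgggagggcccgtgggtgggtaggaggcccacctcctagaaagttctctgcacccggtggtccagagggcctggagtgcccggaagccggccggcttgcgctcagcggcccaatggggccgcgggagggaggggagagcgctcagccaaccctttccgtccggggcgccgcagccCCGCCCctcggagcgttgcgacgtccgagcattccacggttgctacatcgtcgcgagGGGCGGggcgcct
The interval between CCND3 and TAF8 held 4 GC boxes, each sharing 1 base with the next, and 1 E-box in its 155 bases. The canonical CCND3 stretch held 2 GC boxes, the CDKN1B stretch 1 and the CDK6 stretch 3, and these 3 stretches held no E-box. Their GC content was 71.2%, 64.4% and 80.0%, respectively, and that of the interval between CCND3 and TAF8 was 62.6%.

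The 3 regions were long. With 8649 bp, 9599 bp and 14449 bp they exceeded 92.6%, 95.6% and 99.3% of the regions reduced at 2.5 μM, whose median was 4949 bp. At the 2178 protein-coding genes counted at this dose the median region was 5149 bp long (quartiles 4199 and 6349 bp). Over the 1971 protein-coding genes whose canonical TSS lay in a region, the median reach was 1849 bp upstream (quartiles 1279 and 2616 bp) and 3095 bp downstream (quartiles 2314 and 4118 bp). CDK6, with 2412 bp upstream and 7186 bp downstream, was above the upper quartile downstream and within the middle of the range upstream. CDKN1B, with 3401 and 11047 bp, was above the upper quartile on both sides. From the CCND3 gene start the region reached 2604 bp upstream and 6044 bp downstream, where the upper quartiles over the 1853 protein-coding genes with a covered gene start were 2521 and 4284 bp. That start is the outermost CCND3 start in the region, which TAF8 shares. Most CCND3 transcripts there begin farther inside it, so this reach and the match that follows hold for the gene start only. Among the 1852 other protein-coding genes whose gene start was covered, the reach most like that of CCND3 was at TRIB2, with 2485 and 6013 bp (summed difference 150 bp), and the one most like CDK6 was at IGF2BP2, with 2519 and 7029 bp (summed difference 264 bp). The CDKN1B gene start was outside its region, so no such match was sought. Region length depends on how far the mark extends around a start and on how SICER joins windows, and it is not a measure of the reduction. Each of the 3 regions also held a TSS of another gene, and the regions compared were not matched for the starts they hold.

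**Figure D2:**
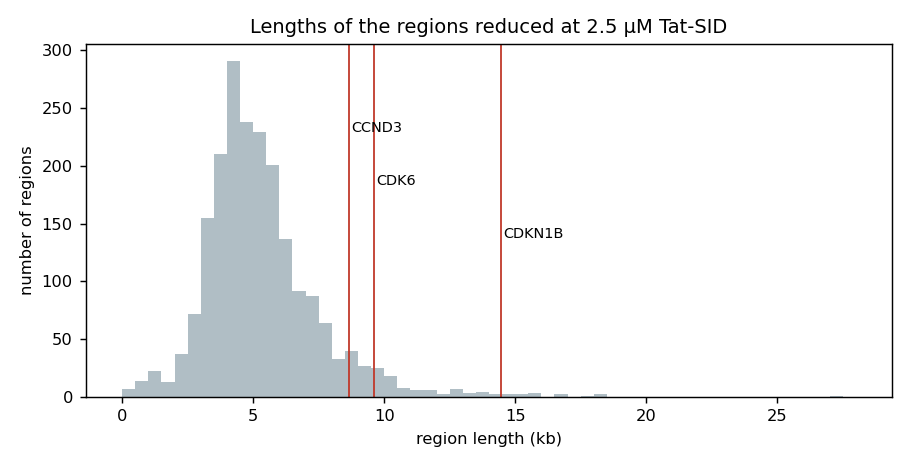
Number of regions reduced at 2.5 μM Tat-SID by length in kb, in bins of 0.5 kb, with red lines at the regions of CCND3 (8649 bp), CDK6 (9599 bp) and CDKN1B (14449 bp). All 3 lines lie to the right of the median of 4949 bp.

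The remaining 7 genes had no region near a TSS, and the distance to the nearest one at 2.5 μM ranged from 75.4 kb to 2017 kb. CDKN1A, a direct p53 target, was the closest. Its nearest region lay 75.4 kb upstream of the gene start, from 36560201 to 36568849 on chromosome 6, and covered the start of the splicing factor gene SRSF3. A region at this place was also on the 1 μM list, from 36560251 with the same end, which made CDKN1A the nearest of the 10 genes to a region at this dose. The E-type cyclin genes, whose products activate CDK2, differed widely, since the nearest region was 236 kb from CCNE2, over the start of PLEKHF2, and 2017 kb from CCNE1. Chromosome 19, which carries CCNE1, had no region at 1 μM at all. CCND2 was 259 kb from the region over C12orf4 and RAD51AP1, and CCND1 was 389 kb from the region over MYEOV. RB1 was 498 kb from the region over FNDC3A, measured from its most downstream TSS, and CDK4 was 1023 kb from the region over NACA. The genes at these distant regions were named after their positions were seen.

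**Figure D3:**
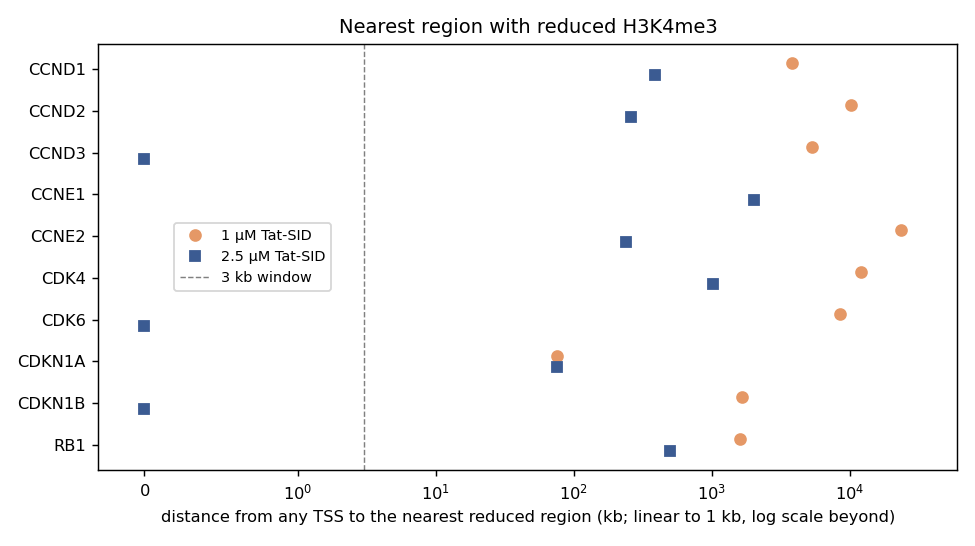
Distance in kb from any annotated TSS of each of the 10 genes to the nearest region reduced at 1 μM (circles) and 2.5 μM Tat-SID (squares), with the axis linear to 1 kb and logarithmic beyond. CCND3, CDK6 and CDKN1B lie at 0 at 2.5 μM, all other points are at 75.4 kb or more, and CCNE1 has no circle because chromosome 19 has no region at 1 μM.

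At 3 places genes with related products differed in the call, where 10.8% of all protein-coding genes were counted and most pairs of genes would not both be. Among the D-type cyclins, CCND3 had a region over its distal starts, shared with TAF8, and CCND1 and CCND2 had none. Of the 2 kinases that these cyclins activate, CDK6 was listed and CDK4 was not. Of the 2 inhibitors, CDKN1B was listed and CDKN1A was not. CCNE1 and CCNE2 were both without a region. A promoter on neither list did not pass the FDR threshold of these lists at either dose, and that threshold is stricter than the one in the study's methods. Each dose was compared as 1 treated with 1 untreated library. A promoter without a listed region may carry no H3K4me3, or its H3K4me3 may still have differed.

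The genes around the 10 were counted in the same way, within 500 kb of each canonical TSS. Around CDKN1A, 6 of 16 protein-coding genes had a reduced region at 2.5 μM, and around CDKN1B 5 of 15, among them APOLD1, which was counted through the CDKN1B region itself. It was 2 of 9 around CDK6, 2 of 10 around CCNE2, 2 of 13 around CCND2 and 1 of 6 around CCND1. Genes that share a region were each counted, as were C12orf4 and RAD51AP1, the 2 around CCND2. Around CCND3 it was 1 of 19, which was TAF8 in the shared region. Around CDK4, RB1 and CCNE1 it was 0 of 29, 0 of 7 and 0 of 5. The share of all protein-coding genes counted was 18.8% on chromosome 6 (CCND3 and CDKN1A), 14.0% on chromosome 13 (RB1), 12.7% on chromosome 12 (CCND2, CDK4 and CDKN1B), 12.4% on chromosome 8 (CCNE2), 9.97% on chromosome 7 (CDK6), 8.28% on chromosome 11 (CCND1) and 2.91% on chromosome 19 (CCNE1). Both genes and regions are unevenly spread, and the part that location plays in the calls was not tested.

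Around the canonical TSS, sequence composition did not separate the 3 genes with a region from the 7 without one, and no test was made on so few genes. Within 1 kb of the canonical TSS, GC content was 61.3% at CCND3, 57.3% at CDK6 and 61.7% at CDKN1B, and it ranged from 53.7% at CDK4 to 73.0% at CCNE1 in the other 7. The ratio of observed to expected CpG was 0.756, 0.755 and 0.808 at the same 3 genes and 0.522 to 0.889 in the others. The canonical CCND3 TSS is outside its region. Around the CCND3 gene start, which is inside it, the values were 53.0% and 0.727, with GC content below the lowest value of the other 7. Over protein-coding genes, the median ratio was 0.747 for those counted at 2.5 μM and 0.619 for those not counted, with GC content of 55.6% and 56.1%.

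**Figure D4:**
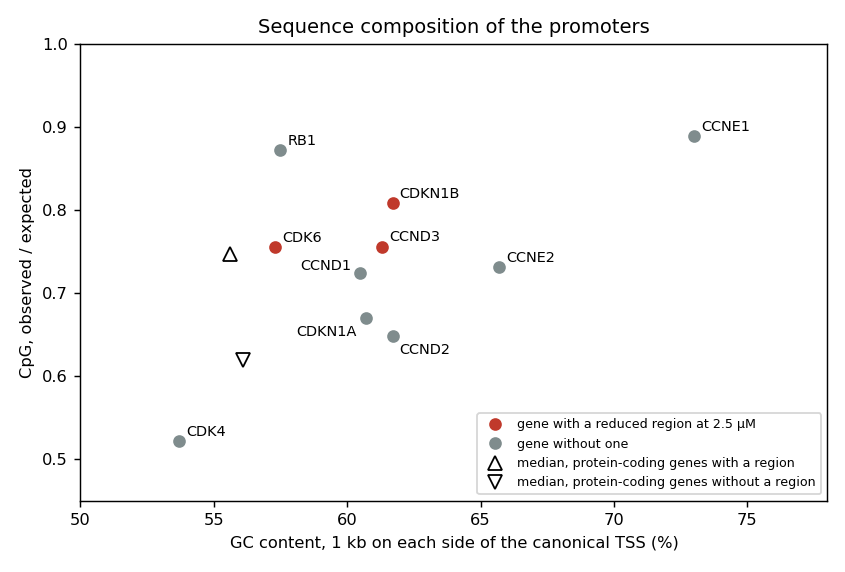
Ratio of observed to expected CpG against GC content in percent, 1 kb on each side of the canonical TSS, for the 3 genes with a reduced region at 2.5 μM Tat-SID (red) and the 7 without one (grey), with the medians of protein-coding genes with and without a region (open triangles). The red points lie among the grey ones, and the red point of CCND3 stands for its canonical TSS, which is outside the region.

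The E-box, the E2F site and the GC box were counted on both strands in the 300 bases from 250 before to 50 after the start of the canonical transcript. The E-box CACGTG occurred 3 times at CDK4 and once at CDK6, and in none of the other 8 genes, while 8.76% of protein-coding promoters held it. The E-box of CDK6 lies downstream of the stretch shown above, in the last 50 bases of the window, and is inside the reduced region. For CCND3 this window is at the canonical TSS, outside any region, and the covered interval before its gene start held the 1 E-box shown above, with 3 in the whole region. The 3 at CDK4, a known MYC target, are shown because this gene was without a region at either dose. They lie 211, 191 and 96 bases before its canonical TSS, counted to the nearest base of the motif, on the minus strand of chromosome 12 at chr12:58146292-58146321, chr12:58146272-58146301 and chr12:58146177-58146206, with the motif in capitals and 12 bases on each side.
CDK4 E-box 1: atgtcaagcggtCACGTGtgatagcaacag
CDK4 E-box 2: atagcaacagatCACGTGgctgccatcgcc
CDK4 E-box 3: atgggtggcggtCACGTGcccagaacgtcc
An E2F site, searched as TTTCGCGC, TTTGGCGC or TTTCCCGC, occurred at CCND1 and RB1 and at 3.72% of protein-coding promoters. The GC box GGGCGG occurred at 9 of the 10 genes, all but CCND2, with 7 copies at CCNE1, and at 61.4% of protein-coding promoters. Among protein-coding genes counted at 2.5 μM, 9.30% held an E-box, 4.79% an E2F site and 71.7% a GC box, against 8.70%, 3.59% and 60.2% of those not counted. A match gives the letters in this window and does not show that a factor was bound.

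Related genes were read from 6 lists with 69 genes, chosen by function, which take in G2/M genes and transcriptional cyclins and CDKs beside those of G1 and S phase. These lists too were chosen with earlier results of these data known, and their shares were not tested against the background. At 2.5 μM, 17 of the 69 (24.6%) had a region within 3 kb of a TSS, beside 10.8% of all protein-coding genes. Of the 52 genes with a CpG promoter 14 did, beside the 15.0% of protein-coding genes with such a promoter given above. At 1 μM it was 3 of 69 (4.35%), beside 0.674%. The 17 regions each covered a TSS. Their lengths ran from 3549 to 10499 bp around a median of 5599 bp. All 3 regions of the 10 main genes were longer than this median.

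**Figure D5:**
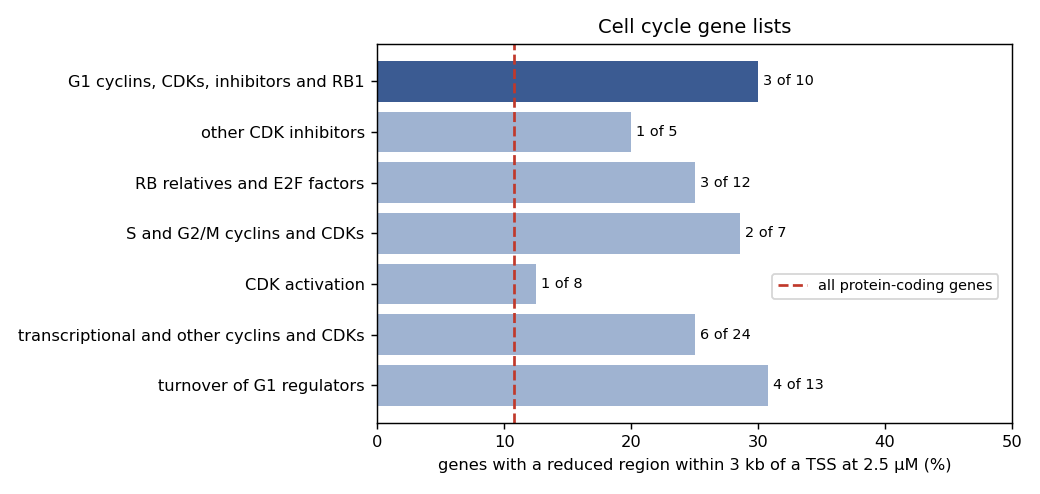
Percentage of genes whose H3K4me3 was listed as reduced near a TSS (within 3 kb) at 2.5 μM Tat-SID in the 10 main genes (dark bar, 3 of 10) and in 6 lists of related genes (light bars), with the number of genes beside each bar and a dashed line at 10.8%, the share of all protein-coding genes. Every bar ends to the right of the line, and the lists hold only 5 to 24 genes. The CDK activation bar (12.5%) is below 15.0%, the share counted among protein-coding genes with a CpG promoter, which is not drawn. The line includes genes that carry no H3K4me3, all the lists were chosen with earlier results of these data known, and no share was tested against it.

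Of 5 further CDK inhibitor genes, CDKN2C was counted. It encodes the INK4 protein p18, which binds CDK4 and CDK6, and it was listed at both doses with 1 and the same region, from 51432401 to 51439299 on chromosome 1 (6899 bp). CDKN2A, CDKN2B, CDKN2D and CDKN1C were not, and the nearest region was 102 kb from CDKN1C, 519 kb from CDKN2D, 1345 kb from CDKN2A and 1381 kb from CDKN2B. The CDKN2A and CDKN2B locus is known to be homozygously deleted in MDA-MB-231, which could not be checked from these lists.

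Of 12 genes for relatives of RB1 and for E2F factors and their partners, 3 were counted at 2.5 μM. E2F7, an atypical E2F that represses E2F targets, had a region of 6449 bp, and was also on the 1 μM list with 6499 bp. E2F3, an activating E2F, had a region of 5499 bp, and E2F8, the other atypical E2F, one of 3949 bp. RBL1, RBL2, E2F1 and the remaining members of this list had none.

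Of 7 genes for S and G2/M cyclins and their kinases, CCNA2 (4499 bp), which encodes the cyclin of S phase, and CDK1 (5799 bp), the mitotic kinase gene, were counted. CDK2, the partner of the E-type cyclins, was 144 kb from the nearest region. Of 8 genes for CDK activation, MNAT1 (3549 bp) was counted, whose product assembles the CDK-activating kinase from CDK7 and cyclin H.

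The proteins that remove p27 and cyclins gave 4 genes of 13. CKS1B, needed by the SKP2 ligase to recognise p27, had a region of 7949 bp that also held starts of SHC1, and its paralogue CKS2 had the longest region of the 69 genes with 10499 bp, which also held a start of SECISBP2. SKP1 (4949 bp) encodes the adaptor of the SCF ligases and CUL3 (4899 bp) the scaffold of another ligase family. SKP2 itself had no region. Of 24 genes for transcriptional and other cyclins and CDKs 6 were counted, and the 4 with the longest regions were CDK13 (7649 bp), CCNL1 (6749 bp), CDK17 (6349 bp) and CCNY (5599 bp). CDK13, which phosphorylates RNA polymerase II, was the one of these 24 that was also on the 1 μM list, with 7999 bp.

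Both doses were called against the same untreated library, so the 1 μM and 2.5 μM calls of a gene are not independent of each other. The 3 genes on both lists, CDKN2C, E2F7 and CDK13, had regions that differed by 0, 50 and 350 bp in length between the doses.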

How the data were processed

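Per the study's methods, the authors sequenced native H3K4me3 ChIP and input DNA from MDA-MB-231 cells as 100-base single reads, aligned them to hg19 with Bowtie (version 1.0.0) and compared each treated library with the untreated library by SICER-df, with windows of 50 bp and gaps of 400 bp. Handling of duplicate reads is not given in the sources used here. The deposited lists hold positions only and no replicates were pooled. The direction of each list was taken from its name, which carries a stricter FDR threshold than the methods state. Files were taken to be in BED format, and printed positions count from 1. No region ended beyond its GRCh37 chromosome. TSS were from GENCODE release 44 mapped to GRCh37. Calls were checked on simulated data, where regions placed at 200 protein-coding genes recovered all 200. The regions were placed by the counting rule itself, so this checks the code and not the calls in these data. CpG promoters had a GC content over 50% and a CpG ratio over 0.6 within 1 kb of the canonical TSS. This background was added after the data were seen. The 10 genes and the 6 lists were chosen with earlier results of these data known. Named are all 10 genes, the listed genes (the 4 longest regions where over 5 were called), genes with a TSS in a region of the 10, and the gene of most similar reach. Alternatives changed the TSS window and set, the minimum length and the merging of regions. Computations used Python 3.11.15, numpy 2.4.6, scipy 1.17.1 and matplotlib 3.10.9.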

Additional observations from a re-analysis of the deposited data

How the results depend on the processing

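CCND3, CDK6 and CDKN1B were called at 2.5 μM when the region had to cover a TSS, with windows of 1 or 10 kb, with coding transcripts only, with regions of at least 1000 bp and with regions within 3000 bp merged. With the gene start as the only TSS 2 genes were called, CDKN1B being lost, and with the canonical TSS only, an alternative chosen after seeing the data, 2 were called, CCND3 being lost. Both losses follow from where the regions lie. None of the 10 genes was called at 1 μM under any alternative. Of the 69 related genes, 15 were called at 2.5 μM and 2 at 1 μM with the gene start only, and 18 at 2.5 μM with 10 kb, against 17 and 3 as reported. These 2 counts did not change under the other alternatives. The share of protein-coding genes called was 11.6% at 2.5 μM with 10 kb. With the gene start only it was 9.50% at 2.5 μM and 0.496% at 1 μM, and with the canonical TSS 9.88% at 2.5 μM, because other start sites were counted. No paired analysis was possible because the labels give no replicates. The depth of the libraries is unknown here, and a missing region is not evidence of unchanged H3K4me3.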
